A study of Mus musculus with 12 samples.

Results

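The Cyp3a genes are the mouse members of the cytochrome P450 3A subfamily, and the 8 that were studied here are Cyp3a11, Cyp3a13, Cyp3a16, Cyp3a25, Cyp3a41a, Cyp3a41b, Cyp3a44 and Cyp3a59. They were taken by symbol from a table of 38087 genes, where each of the 8 symbols stands on its own Ensembl identifier. Their RNA was measured in livers of germ-free male C57BL/6j mice, animals raised without any microbes, at 13 to 16 weeks of age. The PBS group (6 libraries) had received the saline vehicle and the GH group (6 libraries) recombinant human growth hormone, 50 µg per mouse, under the skin. Injections were given 2 times a day, at ZT 2 and ZT 14 (hours after lights-on), for 5 days, and livers were taken at ZT 2. The labels do not say whether 50 µg was the amount of each injection or of each day. No females and no mice with microbes were among the samples. The labels number the samples but do not say that each came from a separate animal, so the spread behind each p-value is that between samples and may be technical.

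Cyp3a enzymes are haem proteins of the endoplasmic reticulum that oxidise drugs, steroids and bile acids, and Cyp3a11 is usually treated as the mouse counterpart of human CYP3A4. In liver they are induced by the nuclear receptors PXR (gene Nr1i2) and CAR (gene Nr1i3), each of which binds DNA together with RXRα (gene Rxra). Cyp3a41a, Cyp3a41b and Cyp3a44 are known as female-predominant liver genes and Cyp3a16 as a gene of fetal and newborn liver. Growth hormone acts through STAT5 and is released in a sex-specific temporal pattern, which sets much of the sex difference among liver P450 genes.

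All 8 genes lie on chromosome 5 of mm10. Cyp3a13 stands apart at chr5:137892932-137921619 on the minus strand. The other 7 form a cluster. In order along the chromosome these are Cyp3a16 (chr5:145436309-145469723), Cyp3a41b (chr5:145558664-145584730), Cyp3a41a (chr5:145694049-145720136), Cyp3a44 (chr5:145773983-145805874), Cyp3a11 (chr5:145854426-145879964) and Cyp3a25 (chr5:145977194-146009618), all on the minus strand. Cyp3a59 (chr5:146079257-146113287) closes the cluster and is the only one of the 8 on the plus strand. Each gene has 13 exons in its coding transcript, and the coding sequences are 1509 or 1512 bases long.

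The copies differ widely in how alike they are, which bears on how well their reads can be told apart. The coding sequences of Cyp3a41a and Cyp3a41b were 99.9% identical, with 2 differing bases, and those of Cyp3a25 and Cyp3a59 were 97.5% identical, with 38. Cyp3a11 was 95.2% identical to Cyp3a41a, whereas Cyp3a13 was 74.7% to 76.6% identical to the others. Sequencing ran for 125 cycles from each end, so every 125-base stretch of the annotated transcripts was looked up in all other genes. Of such stretches of Cyp3a41a, 85.7% also occur in Cyp3a41b, and 85.5% of those of Cyp3a41b occur in Cyp3a41a. Cyp3a25 shared 2.67% of its stretches with Cyp3a59, Cyp3a59 shared 2.95% of its own with Cyp3a25, and Cyp3a11, Cyp3a13 and Cyp3a16 shared 0 with any other gene. Counts of Cyp3a41a and Cyp3a41b are therefore uncertain as single genes. Those of Cyp3a16 are uncertain too, since they equalled those of Cyp3a41b in all 12 libraries.

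**Figure D1:**
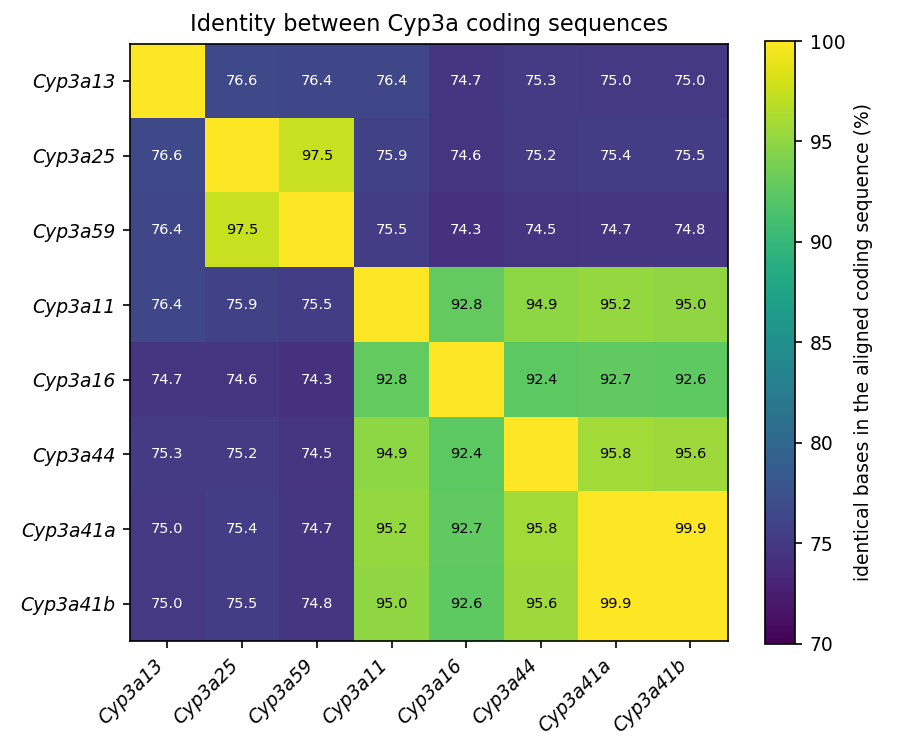
Identity of the coding sequences of the 8 Cyp3a genes, in percent of aligned positions, with genes on both axes in the same order and a colour scale for the percentage. The Cyp3a41a and Cyp3a41b pair reaches 99.9%, the Cyp3a25 and Cyp3a59 pair 97.5%, and Cyp3a13 stays between 74.7% and 76.6% with every other gene.

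The sequences just upstream of the starts were compared because the 4 genes with readable levels include a pair, Cyp3a25 and Cyp3a59, whose levels moved together across libraries. Each line gives the 250 bases before the start annotated by RefSeq on GRCm38.p6, read 5′ to 3′ on the gene's strand. Cyp3a11 is chr5:145879855-145880104 (minus), Cyp3a25 is chr5:146009619-146009868 (minus) and Cyp3a59 is chr5:146079008-146079257 (plus). Capitals mark matches to AGNTCA, the hexamer bound by many nuclear receptors, or to its reverse complement TGANCT.
Cyp3a11: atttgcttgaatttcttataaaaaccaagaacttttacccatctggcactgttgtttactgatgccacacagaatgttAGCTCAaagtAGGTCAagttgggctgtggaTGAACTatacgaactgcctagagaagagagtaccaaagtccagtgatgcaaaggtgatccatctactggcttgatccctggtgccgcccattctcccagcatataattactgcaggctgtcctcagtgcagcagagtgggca
Cyp3a25: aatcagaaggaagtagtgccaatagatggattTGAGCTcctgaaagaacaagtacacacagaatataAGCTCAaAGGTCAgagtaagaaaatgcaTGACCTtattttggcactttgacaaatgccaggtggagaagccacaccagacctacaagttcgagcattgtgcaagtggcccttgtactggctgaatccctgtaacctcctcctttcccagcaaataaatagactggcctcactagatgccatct
Cyp3a59: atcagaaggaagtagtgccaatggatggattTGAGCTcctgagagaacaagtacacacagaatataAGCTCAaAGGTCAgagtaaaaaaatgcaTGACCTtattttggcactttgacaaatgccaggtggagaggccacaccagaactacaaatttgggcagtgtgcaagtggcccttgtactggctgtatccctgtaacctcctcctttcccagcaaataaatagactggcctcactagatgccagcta
The Cyp3a25 and Cyp3a59 windows were 94.8% identical and held 4 matches each, among them a pair in the same orientation with 1 base between (starting 183 and 176 bases before the start of Cyp3a25, and 184 and 177 before that of Cyp3a59). Cyp3a11 held 3 matches, including a pair in the same orientation with 4 bases between, starting 172 and 162 bases before the start. The Cyp3a11 window overlaps the gene span given above, which ends at chr5:145879964. The RefSeq start thus lies inside that span, and these distances hold for the RefSeq start only. Of 27025 RefSeq promoter windows of the same length, 41.2% held at least 1 match, 2.49% at least 3 and 0.466% at least 4. Cyp3a44 held 2 matches, Cyp3a16, Cyp3a41a and Cyp3a41b 1 each, and Cyp3a13 had 0. The STAT5-type motif TTCNNNGAA, its own reverse complement, occurred 0 times in the 8 windows, against 7.18% of all windows with at least 1. A match is a description of letters in the window only.

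The near-identical female-predominant copies are shown to make their ambiguity visible. Capitals again mark AGNTCA or its reverse complement, in the 250 bases before the starts of Cyp3a41a (chr5:145720137-145720386, minus) and Cyp3a41b (chr5:145584731-145584980, minus).
Cyp3a41a: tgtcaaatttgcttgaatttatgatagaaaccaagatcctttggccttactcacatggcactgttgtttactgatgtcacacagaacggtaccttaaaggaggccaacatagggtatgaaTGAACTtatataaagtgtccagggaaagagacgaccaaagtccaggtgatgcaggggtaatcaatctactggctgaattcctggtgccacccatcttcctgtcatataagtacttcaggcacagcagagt
Cyp3a41b: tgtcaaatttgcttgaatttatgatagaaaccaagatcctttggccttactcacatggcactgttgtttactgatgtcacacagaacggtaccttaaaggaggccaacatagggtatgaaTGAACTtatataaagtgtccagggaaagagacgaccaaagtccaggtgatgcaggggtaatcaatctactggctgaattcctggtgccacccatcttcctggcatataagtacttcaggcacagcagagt
These 2 windows were 99.6% identical, with 1 difference.

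The 12 libraries held 19523104 to 23278931 counts each, and levels are given as counts-per-million (CPM) after TMM scaling, the edgeR method that sets libraries to a common scale. At this depth a gene with 0 counts could still stand at up to 3 counts, or 0.128 to 0.157 CPM. Hepatocyte marker genes summed to 94260 to 111600 CPM in PBS and 75140 to 100400 CPM in GH libraries. Kupffer cell markers summed to 172 to 272 and 178 to 232 CPM, and lymphocyte markers to 1.45 to 3.30 and 1.85 to 2.89 CPM. Of the 6 markers of small intestine, the other main site of Cyp3a13 expression, Sis, Lct, Alpi and Cdx2 were at 0 counts in all 12 libraries. Vil1 did not pass the filter on low counts, while Fabp2, a fatty acid binding protein gene that liver also expresses, was at 37.1 to 58.5 CPM in PBS and 38.9 to 58.9 CPM in GH.

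No Cyp3a gene was called higher or lower in GH than in PBS livers. Of the 8, Cyp3a11, Cyp3a13, Cyp3a25 and Cyp3a59 passed the filter on low counts, and 0 of these 4 were called in either direction by edgeR's quasi-likelihood test at an adjusted p under 0.05. Among all tested genes, 4.79% of 14235 tested genes were called, 2.27% higher and 2.52% lower in GH. At an unadjusted p under 0.05 the count for the Cyp3a genes was also 0, and DESeq2 called 0. The PBS and GH groups overlapped for each of the 4 genes, whereas 3.18% of tested genes had groups that did not overlap. Cyp3a16, Cyp3a41a, Cyp3a41b and Cyp3a44 had too few counts to be tested. In bulk liver, fewer cells that express a gene and less RNA per cell cannot be told apart.

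Cyp3a25, a liver steroid and drug oxidase, had the highest level of the 8. Its lowest, median and highest CPM were 339, 414 and 622 in PBS and 271, 371 and 600.3 in GH. The groups overlapped over most of their range, with PBS replicate 2 the highest library and GH replicate 1 the lowest. The PBS libraries averaged 451 ± 118 CPM and the GH libraries 398 ± 129 CPM (SD, n = 6 each). The log2 fold change was -0.18 ± 0.22 (SE), with an adjusted p of 0.728 by edgeR. Its 95% interval, a fold of 0.630 to 1.24, leaves room for a decrease or a small increase. The log2 fold change was -0.34 without GH replicate 6, -0.067 without PBS replicate 2 and -0.41 without PBS replicate 5 and GH replicate 6 together.

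Cyp3a13, which is expressed in intestine as well as liver, came next. Its lowest, median and highest CPM were 154, 178 and 230 in PBS and 141, 174 and 352 in GH. The medians lay close together, and GH replicate 6 alone stood above all other libraries. The means were 186 ± 29.2 and 201 ± 76.3 CPM (SD, n = 6 each). The log2 fold change was 0.12 ± 0.20, with an adjusted p of 0.815 by edgeR and a 95% interval of 0.801 to 1.47 in fold. Without GH replicate 6 the log2 fold change was -0.12, so its sign rests on that library. Gm15502, annotated inside the span of Cyp3a13 on the same strand, was at 5.58 CPM in PBS and 6.01 in GH.

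Cyp3a11, the main drug-inducible Cyp3a of mouse liver, varied most. In PBS its CPM were 185, 111, 92.1, 90.1, 12.1 and 119 for replicates 1 to 6. In GH they were 85.6, 139, 51.7, 127, 87.4 and 18.1. PBS replicate 5 and GH replicate 6 lay far below the other 10 libraries, and the remaining values overlapped. The highest library was 15.2 times the lowest in PBS and 7.72 times in GH. Group means were 102 ± 55.7 and 84.9 ± 45.5 CPM (SD, n = 6 each). The within-group standard deviation of log2 CPM was 1.24, larger than that of 99.7% of tested genes. For Cyp3a13, Cyp3a25 and Cyp3a59 it was 0.360, 0.414 and 0.647.

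With this spread, the Cyp3a11 comparison was the least precise of the 4. The log2 fold change was -0.26 ± 0.59 (SE), with an adjusted p of 0.868 by edgeR and a 95% interval from 0.339 to 2.06 in fold. Leaving out single libraries gave -0.49 (without PBS replicate 5) to -0.0022 (without PBS replicate 1). Without PBS replicate 5 and GH replicate 6 together it was -0.28 with an adjusted p of 0.656.

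Cyp3a59, the close relative of Cyp3a25, had the lowest level of the tested genes. Its lowest, median and highest CPM were 6.27, 10.1 and 19.3 in PBS and 6.76, 10.5 and 20.9 in GH. High and low libraries occurred in both groups. The means were 12.1 ± 5.80 and 12.2 ± 5.37 CPM (SD, n = 6 each), and the log2 fold change was 0.014 ± 0.36 with an adjusted p of 0.990 by edgeR. The 95% interval ran from 0.581 to 1.76 in fold. The estimate was below 0 in 5 of the 12 fits that left out a library, which ranged from -0.21 (without GH replicate 6) to 0.20 (without PBS replicate 1).

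**Figure D2:**
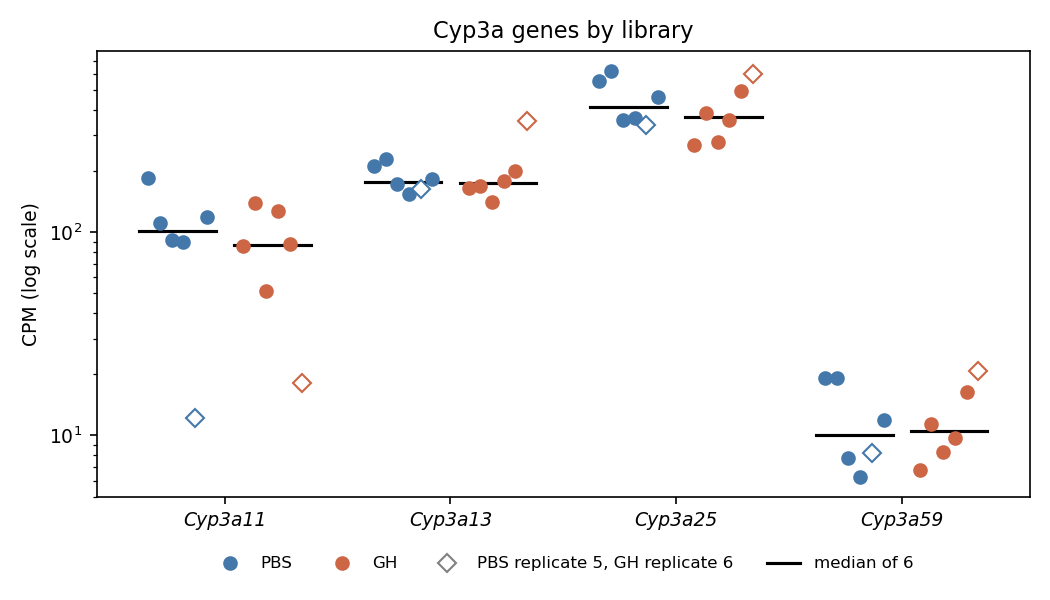
CPM on a log axis of the 4 Cyp3a genes that passed the filter, in 6 PBS (blue) and 6 GH (orange) libraries, 1 point per library and a bar at the median. Open diamonds mark PBS replicate 5 and GH replicate 6, which hold the lowest Cyp3a11 values, 12.1 and 18.1 CPM, while GH replicate 6 holds the highest Cyp3a13 value, 352 CPM.

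Cyp3a16 and the female-predominant copies were near the floor of detection in these male livers, with and without growth hormone. Cyp3a44 had 4, 2, 4, 3, 3 and 3 counts in PBS replicates 1 to 6 and 6, 2, 1, 4, 3 and 0 in GH. Cyp3a41a had 0, 0, 0, 0, 3 and 2 counts in PBS and 2, 0, 0, 4, 5 and 0 in GH. Cyp3a16 had 0, 0, 0, 0, 2 and 2 in PBS and 2, 0, 0, 3, 3 and 0 in GH. These are a handful of reads per library, and the groups overlapped. Cyp3a41b had the same count as Cyp3a16 in all 12 libraries, and the same count as Cyp3a41a in 9. Since no 125-base stretch of Cyp3a16 occurs in Cyp3a41b, the origin of the equal values is not known, and the 2 genes should not be read as separate measurements. Summed over the 6 libraries of a group, the 4 low copies held 32 counts in PBS and 43 in GH. Given the equal values, this sum may count the same reads more than 1 time. The sum did not reach the filter on low counts either, so no induction was detectable at this depth, and a small change at these levels could not be seen.

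Levels were also compared per kilobase of the annotated coding transcript, the scale that allows genes of different length to be ordered. In mean CPM per kilobase, Cyp3a25 had 225 in PBS and 199 in GH, Cyp3a13 62.8 and 68.1, Cyp3a11 43.3 and 36.2, and Cyp3a59 6.08 and 6.13. Cyp3a25 lay above Cyp3a13 in 12 of 12 libraries. Cyp3a13 lay above Cyp3a11 in 10 of 12, so these neighbours were not separated in every library. Cyp3a11 lay above Cyp3a59 in 11 of 12. The length of Cyp3a11 depends on the annotation, because a transcript with retained introns widens its exons from 2344 to 5093 bases. With all annotated exons as length, Cyp3a13 exceeded Cyp3a11 in 12 of 12 libraries.

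Together the 8 genes made up 750 ± 194 CPM in PBS and 696 ± 186 CPM in GH (SD, n = 6 each), with ranges of 523 to 982 and 479 to 991. Cyp3a25 supplied 60.2% ± 3.27 of these counts in PBS and 56.5% ± 4.33 in GH. Cyp3a13 supplied 25.4% ± 3.41 and 28.7% ± 4.36, Cyp3a11 12.9% ± 5.72 and 13.1% ± 6.70, and Cyp3a59 1.55% and 1.70%. The ranges of each gene's share overlapped between the groups, and no test was made of them. The Cyp3a11 share was 2.32% in PBS replicate 5 and 1.82% in GH replicate 6, against 10.8% to 19.8% in the other 10.

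**Figure D3:**
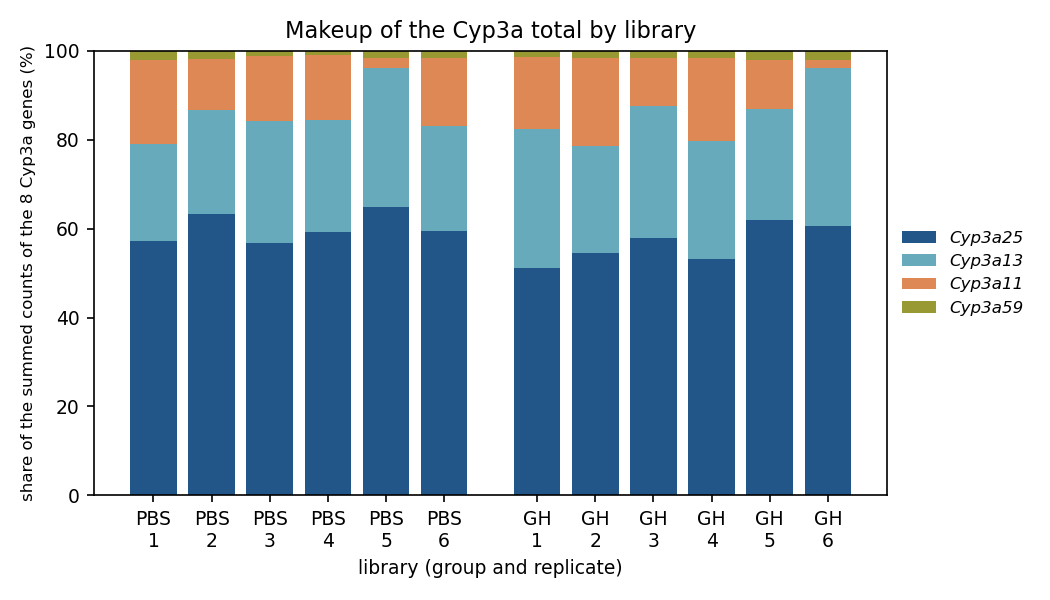
Share of the summed counts of the 8 Cyp3a genes held by each, in percent, in each of 12 libraries (the 4 low copies are too small to see). Cyp3a25 fills more than any other gene in every library, and the Cyp3a11 share shrinks to 2.32% in PBS replicate 5 and 1.82% in GH replicate 6.

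Cyp3a25 and Cyp3a59 varied together from library to library. The Pearson correlation of their log2 CPM, after each group's mean was removed, was 0.958 over 12 libraries, and 0.950 over 10 without PBS replicate 5 and GH replicate 6. Cyp3a13 followed both, at 0.870 with Cyp3a25 and 0.818 with Cyp3a59. Cyp3a11 did not, at -0.23 with Cyp3a13, 0.084 with Cyp3a25 and 0.071 with Cyp3a59. Without the same 2 libraries these became 0.580, 0.543 and 0.517. Spearman's rho over all 12 was 0.888 for Cyp3a25 with Cyp3a59, 0.867 for Cyp3a13 with each of them, and 0.23 to 0.34 for Cyp3a11 with the other 3. All points share their library and its scaling, and Cyp3a25 and Cyp3a59 share 59 stretches of 125 bases. Cyp3a59 counts were 2.57% ± 0.624 of Cyp3a25 counts in PBS, from 1.72% to 3.46%, and 2.98% ± 0.359 in GH (SD, n = 6 each). The share of Cyp3a25 reads that might have been assigned to Cyp3a59 was not tested.

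The 2 libraries in which Cyp3a11 was low also stood apart in other genes. Over all tested genes 6.65% were lowest in their group in both PBS replicate 5 and GH replicate 6. Of 32 tested targets of PXR and CAR other than Cyp3a genes, 11 were lowest in both (34.4%) and 4 were highest in both (Abcb1a, Gsta2, Gsta4 and Sult1e1), against 945 of 14235 tested genes highest in both. The 11 included Cyp2c29, Cyp2c37, Cyp2c50 and Cyp2c54, which encode P450 enzymes, and Abcc2, a bile canalicular exporter. The 3 genes Ugt1a1, Ugt1a6a and Ugt1a9 were among the 11 as well, but they share exons and are not separate measurements. Shares above 6.65% were not particular to these targets. Lowest in both were also 2 of 5 sinusoidal endothelium markers (Stab2 and Clec4g) and 3 of 10 female-biased P450 genes of other families. So were 1 of 5 male-biased P450 genes and 3 of 19 genes for electron donors and haem supply. The count was 0 for 6 Kupffer cell, 8 stellate cell and 5 cholangiocyte markers. Nr1i2 itself, the PXR gene, was 61.5 CPM in PBS replicate 5 and 64.6 in GH replicate 6, inside the 53.3 to 68.1 of all 12 libraries. Nr1i3, the CAR gene, was lowest in its group in GH replicate 6, at 91.9 CPM against 129 to 174, but not in PBS replicate 5, at 102 against 72.4 to 234. Nr1h4, which encodes the bile acid receptor FXR, was lowest in both, at 65.3 CPM against 85.3 to 106 in PBS and 50.6 against 69.0 to 79.0 in GH.

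Zonation markers also stood apart in the same 2 libraries. Glul, the glutamine synthetase of hepatocytes around the central vein, was 474 CPM in PBS replicate 5 against 797 to 925 in the other PBS libraries, and 391 in GH replicate 6 against 807 to 979. Of 8 pericentral markers 3 were lowest in both libraries (Glul, Rhbg and Cyp1a2). Cyp1a2 is also among the 11 PXR and CAR targets above. Oat, however, was highest in both, at 1061 CPM against 526.2 to 900.1 in PBS and 1203 against 491 to 743 in GH. Of 7 periportal markers 5 were highest in both and 0 lowest in both. Sds, a periportal serine dehydratase, was 416 CPM in PBS replicate 5 against 154 to 226 in the other PBS libraries. Summed pericentral markers were 5261 to 10310 CPM in PBS (PBS replicate 5 the lowest) and 6468 to 8113 in GH (GH replicate 6 6647). Saa1, an acute-phase gene, was 129 CPM in PBS replicate 5 against 19.3 to 109, and 3056 in GH replicate 6 against 591 to 828. Saa1 was also called higher in GH as a group (log2 fold change 3.88 ± 0.60, SE, edgeR adjusted p = 0.00573). That call was lost with the replicate block (edgeR adjusted p = 0.0704). The part of these genes in the Cyp3a11 values was not tested.

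The genes whose pattern was most like that of Cyp3a11 were picked by the Pearson correlation of log2 CPM over 12 libraries, with group means removed. They were Ces1g, a carboxylesterase (0.959), F13b (0.939), Kat2b (0.939), Syt1 (0.936) and Aqp9, a glycerol channel of hepatocytes (0.935). Since PBS replicate 5 and GH replicate 6 set much of the Cyp3a11 pattern, genes chosen this way are low there by the choice, and all 5 were lowest in both. Ces1g was 132 CPM in PBS replicate 5 against 192 to 232 in the other PBS libraries, and 137 in GH replicate 6 against 174 to 251. Over the 10 other libraries the correlations were 0.820 for Ces1g and 0.624 to 0.782 for the other 4. Ranked over those 10 libraries alone, the 5 most alike were different genes: Sepn1 (0.957), Trp53bp2 (0.940), Kctd13 (0.935), Sap130 (0.917) and Ccdc151 (0.910).

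**Figure D4:**
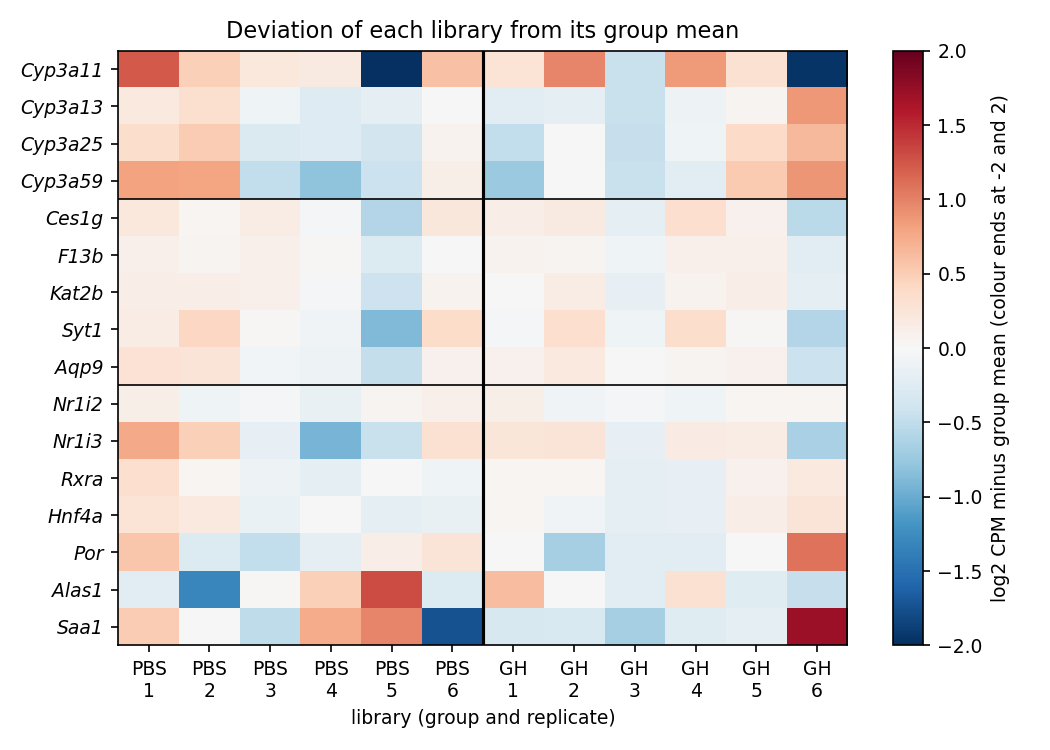
Log2 CPM of each of 12 libraries minus its group mean, as colour, for the 4 tested Cyp3a genes, the 5 genes most like Cyp3a11 in pattern, and receptors, partners and Saa1. The colours end at -2 and 2. PBS replicate 5 and GH replicate 6 are deep blue for Cyp3a11. They lie below 0 for the 5 genes below the Cyp3a block, but the colour is faint for F13b (-0.27 and -0.23). Nr1i2 is near white in all 12, from -0.15 to 0.12.

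The receptors that control Cyp3a transcription were measured beside the genes, from a list of 21 regulators of which 20 could be tested. The list held 0 genes called higher and 1 called lower, against 2.27% higher and 2.52% lower among all tested genes. Its median log2 fold change was -0.019, against 5.37e-04 for all tested genes. Nr1i2, encoding PXR, differed by 0.082 on the log2 scale (adjusted p = 0.526), Nr1i3, encoding CAR, by -0.018 (0.982), Rxra by -0.097 (0.630) and Hnf4a, a hepatocyte master regulator, by -0.11 (0.624), none of them called by edgeR. The gene that fell was Onecut1, which encodes the hepatocyte factor HNF6. It went from 20.4 ± 12.0 CPM in PBS to 1.67 ± 0.360 CPM in GH (SD, n = 6 each), a log2 fold change of -3.60 ± 0.46 (edgeR adjusted p = 0.00167). All 6 GH libraries lay below the 6 PBS libraries, and the gene overlaps Gm20649 on the same strand.

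Among the other targets of PXR and CAR, several genes of drug conjugation and of the Cyp2c family were lower in GH. Of 32 tested, 3 were called higher and 10 lower by edgeR, against 2.27% and 2.52% of all tested genes. The list's median log2 fold change was -0.36. Lower were Gstt1, a glutathione transferase (-0.99 ± 0.089, SE), Cyp2c29 (-1.20 ± 0.16), Cyp2c37 (-1.37 ± 0.25), Sult1a1, a phenol sulfotransferase (-0.82 ± 0.15), Gadd45b (-1.83 ± 0.41) and Aldh1a7 (-0.34 ± 0.081). Cyp2c29 went from 1721 ± 356 CPM in PBS to 751 ± 154 in GH, with no overlap. Higher were Cyp1a2 (0.67 ± 0.11), the drug exporter gene Abcb1b (1.08 ± 0.21) and Sult1e1, the oestrogen sulfotransferase (2.01 ± 0.38). The number lower was 4 without GH replicate 2 (Cyp2c29, Cyp2c37, Gstt1 and Sult1a1) and 14 without PBS replicate 5. It was 5 without PBS replicate 6 or GH replicate 5, and 6 without PBS replicate 1, PBS replicate 2 or GH replicate 3.

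**Figure D5:**
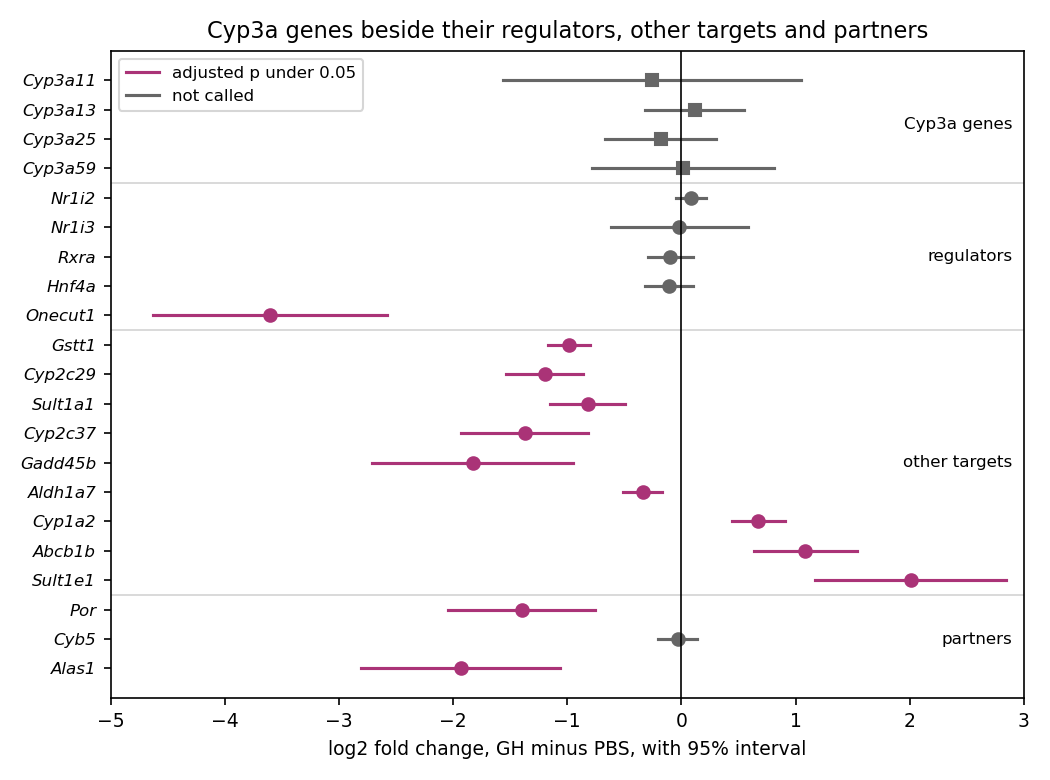
Log2 fold change, GH minus PBS, with its 95% interval for the 4 tested Cyp3a genes (squares) and the named regulators, other PXR and CAR targets and partners (circles), with called genes in purple and others in grey. The Cyp3a intervals all include 0, and that of Cyp3a11 is the widest of the 4 Cyp3a genes, from -1.56 to 1.05.

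Every Cyp3a enzyme needs electrons from P450 oxidoreductase, help from cytochrome b5 in part of its reactions, and haem. Of 19 tested genes for electron donors and haem supply 0 were called higher and 2 lower, against 2.27% and 2.52% of all tested genes. Por, which encodes the oxidoreductase, went from 113 ± 30.7 CPM in PBS to 42.8 ± 20.9 in GH, a log2 fold change of -1.40 ± 0.29 (edgeR adjusted p = 0.0216). Alas1, the first and rate-limiting enzyme of haem synthesis, went from 138 ± 84.9 to 36.2 ± 10.6 CPM (-1.93 ± 0.39, edgeR adjusted p = 0.0202). Both fell, with all 6 GH libraries below the PBS mean and a small overlap between the groups. The calls are fragile: leaving out a single library ended that of Por in 4 of 12 fits (GH replicate 1, 3, 4 or 5, adjusted p up to 0.0543) and that of Alas1 in 2 of 12 (GH replicate 2 or 3, up to 0.0518). Cyb5, the symbol under which the table lists the cytochrome b5 gene, was at 749 CPM in PBS and 733 CPM in GH (-0.030, adjusted p = 0.888 by edgeR).

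Sex-biased P450 genes of other families served as a comparison for the female-predominant Cyp3a copies. Of 10 tested female-biased genes, 0 were called higher and 2 lower, against 2.27% and 2.52% of all tested genes, with a median of -0.90. Those lower were Cyp2c39 (-1.76 ± 0.36, mean 2.66 CPM in PBS and 0.785 in GH) and Cyp4a14 (-5.07 ± 1.09). Cyp4a14 ranged from 10.3 to 433 CPM in PBS and from 1.28 to 10.1 in GH. Cyp2c40 (1.67) and Cyp2c69 (0.90) had estimates above 0 and were not called. The Cyp4a14 call ended in 5 of 12 fits with a library left out (PBS replicate 6 or GH replicate 2, 3, 4 or 5, edgeR adjusted p up to 0.0653). Of 5 male-biased genes, 3 were called higher and 0 lower, against the same 2.27% and 2.52% of all tested genes. The male-biased genes had a median of 1.03. Cyp7b1, an oxysterol hydroxylase, went from 206 ± 73.5 to 655 ± 99.1 CPM (1.67 ± 0.21, edgeR adjusted p = 9.35e-04). Cyp4a12a and Cyp4a12b rose by 1.03 and 1.13 on the log2 scale, and these calls ended in 10 and 9 of 12 fits that left out a library. The Cyp4a12a call held when PBS replicate 4 or GH replicate 6 was omitted, and the Cyp4a12b call when PBS replicate 1, 2 or 5 was. Cyp2c and Cyp4a genes have near-identical copies too, so reads may be split among them. Thus male-biased genes were called higher in the same libraries in which Cyp3a41a, Cyp3a41b and Cyp3a44 were at a few reads.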

How the data were processed

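Total RNA of 12 liver samples was depleted of ribosomal RNA and made into stranded libraries, per the labels' protocols. The submitters' processing notes name STAR 2.4.0i and mm10. The authors deposited raw exonic read counts per gene. How reads were assigned to genes, and what became of reads that match several copies, is not given in the labels, which matters for near-identical copies. The 8 genes, the gene lists and the tests were chosen with earlier results of these data known.

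GH and PBS were compared with edgeR 4.0.16 (R 4.3.3). After filterByExpr (minimum count 10) and TMM scaling, all 12 libraries entered a robust quasi-likelihood model with no term but group. P-values are two-sided, adjusted by Benjamini-Hochberg over 14235 genes and called under 0.05. The fit was tested on simulated counts drawn with the same dispersion for every gene, so that test does not cover genes as variable as Cyp3a11. SE and 95% intervals come from the F statistic and its degrees of freedom. All 8 Cyp3a genes are named. From each list, up to 6 called genes per direction with the smallest adjusted p are named, plus Nr1i2, Nr1i3, Rxra, Hnf4a, Onecut1, Por, Cyb5 and Alas1. Other genes were named after their values were seen. Identifiers were matched to GENCODE M21 (36308 of 38087 found), whose transcripts gave lengths and identities. Promoter windows are from RefSeq, GRCm38.p6, and all 8 genes matched. Alternatives were DESeq2 1.42.0, no filter, library totals only, a replicate block, other transcript lengths and libraries left out. No 2 libraries of a group were duplicates (chi-square per degree of freedom 8.95 to 75.9).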

Additional observations from a re-analysis of the deposited data

Results flagged for a closer look

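Cyp3a11 in PBS replicate 5 stood apart from its group: 3.61 in log2 CPM, against 6.50 to 7.53 in the other 5 PBS libraries. The gap was 0.736 of the group's whole range, above Dixon's 95% critical value of 0.625 for 6 samples. Cyp3a13 in GH replicate 6 stood apart at 352 CPM, against 141 to 200 CPM (199.5 the highest) in the other 5 GH libraries, with a gap of 0.724 of the range. The Cyp3a11 flag was on log2 CPM and the Cyp3a13 flag on CPM, and Cyp3a11 in GH replicate 6 was not flagged. Of 24 groups of values that were checked 2 passed, and chance alone passes about 1 in 20. The checks share the same 12 libraries, so they are not independent.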

How the results depend on the processing

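No Cyp3a gene was called under any of the alternatives run: DESeq2, no filter on low counts, library totals only, the replicate block, each library left out, and PBS replicate 5 and GH replicate 6 left out. The Cyp3a11 and Cyp3a25 estimates kept their sign throughout, whereas those of the other 2 did not. Cyp3a25 ranged from -0.34 to -0.067 and Cyp3a11 from -0.49 to -0.0022 with 1 library left out. The same fits gave -0.12 to 0.20 for Cyp3a13 and -0.21 to 0.20 for Cyp3a59. Without PBS replicate 5 and GH replicate 6 they were -0.16 and -0.30, and with library totals only Cyp3a59 was -0.044. Estimates near 0 also turned for Ces1g (-0.047 with library totals only, -0.085 to 0.10 with 1 library left out), Nr1i3 (-0.16 to 0.15, and 0.054 with the replicate block), Kat2b (-0.0046 to 0.11) and Cyb5 (-0.071 to 0.010). Over all genes 323 were called higher and 359 lower. The counts were 211 and 658 with library totals only, 506 and 551 with DESeq2, 180 and 211 with the replicate block, and 518 and 504 without both libraries. With 1 library left out, 193 to 410 were higher. Of the regulators DESeq2 called 2 lower (Foxa2 and Onecut1). Without both libraries 2 were lower (Nr1h4 and Onecut1), and with 1 left out 1 to 2 lower. Of the other PXR and CAR targets the replicate block left 4 lower, and leaving out 1 library 4 to 14. Of the partners the block left 1 lower (Por). Without both libraries 1 was higher (Cyb5r3), and with 1 left out 0 to 1 were higher and 0 to 2 lower. Male-biased genes called higher were 5 with DESeq2 and without both libraries, 1 with no filter and 1 to 4 with 1 library left out. Female-biased genes were 0 to 1 higher (Cyp2c40, without PBS replicate 6) and 1 to 3 lower with 1 left out. The labels do not say whether replicate numbers pair the samples. Same-numbered libraries correlated at -0.17 to 0.16, with 2 closest to their own number, which cannot settle whether they are paired. Per kilobase of all exons, the shares were 6.26% for Cyp3a11 in PBS, 21.02% and 24.0% for Cyp3a13 in PBS and GH, 70.8% and 67.3% for Cyp3a25, and 2.10% for Cyp3a59 in GH. This length lowered Cyp3a11 in both groups. Its mean CPM per kilobase was 19.9 in PBS and 16.7 in GH, against 43.3 and 36.2 with the coding transcript. Per kilobase of the coding transcript, added after seeing the data, they were 19.1% and 21.9% for Cyp3a13 and 66.9% and 63.6% for Cyp3a25. The summed copies did not pass the filter. With no filter, edgeR gave 1.08 ± 1.02 (SE, adjusted p = 0.616) for Cyp3a41a and Cyp3a41b together and 0.48 ± 0.65 (0.761) for all 4 low copies, on few counts. Both sums may count the same reads more than 1 time. Lengths move the shares by their construction, and for the other shifts the cause was not tested.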

Other observations

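Genes next to the Cyp3a genes on chromosome 5 were also read. Of the 9 tested neighbours, among them Azgp1 beside Cyp3a13 (1042 CPM in PBS, 1157 in GH) and Cdk8 beyond Cyp3a59 (740 and 1062 CPM), 0 were called by edgeR. The lowest adjusted p was 0.0814, for Gjc3, a gap junction gene near Cyp3a13, at 0.72 ± 0.23 (SE) on the log2 scale. Cyp3a57, a further Cyp3a gene outside the 8, had 1 to 6 counts in each library.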
